A study of Mus musculus with 12 samples.

Results

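The receptors of the common gamma chain cytokines were described across tumour-infiltrating natural killer (NK) cells and CD8 T cells. The members were 7 of the 54232 genes in the tumour count table. They were chosen by name, as the genes of the receptor chains for IL-2, IL-4, IL-7, IL-15 and IL-21: Il2ra, Il2rb, Il2rg, Il7r, Il15ra, Il21r and Il4ra. All 7 were among the 13279 genes tested, so no member was lost to the filter on low counts. The cells came from tumours of MC38, a mouse colon adenocarcinoma line injected under the skin of each flank and taken out after 8 to 10 days. The mice were sex- and age-matched, 6 to 12 weeks old, and on the C57BL/6N background. They were wild type (WT), carried the Tyk2-/- allele of B6N.129P2-Tyk2tm1Biat mice (KO), or carried TYK2 with the K923E substitution, which leaves the protein without kinase activity (KE). TYK2 is a Janus kinase of the interferon and IL-12 family receptors. The mutations were carried by all cells of the host, tumour stroma and other immune cells included, and not by the MC38 cells. CD45+ cells were enriched on magnets, and 300 cells were sorted for each library, NK cells by NK1.1 and the absence of CD3ε and CD8 T cells by CD3ε together with CD8a. RNA was amplified by Smart-seq2, a poly(A)-primed protocol for small inputs, from 500 pg. Each of the 6 cell type and genotype groups held 2 libraries, 12 in all. The labels do not say that both libraries of a group came from different mice, so the p-values measure the spread between these libraries.

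Cytokines of the common gamma chain family are the main survival and growth signals of lymphocytes, and their receptors are built from a few shared parts. The gamma chain, encoded by Il2rg, is in each of these receptors and carries JAK3, while the partner chains carry JAK1. The beta chain encoded by Il2rb serves both IL-2 and IL-15, whereas the alpha chains of IL-2 and IL-15 bind the cytokine without a kinase of their own. The chains of IL-7, IL-21 and IL-4 pair with the gamma chain directly. STAT5 is the main transcription factor downstream of IL-2, IL-7 and IL-15, STAT3 downstream of IL-21 and STAT6 downstream of IL-4. NK cells are known to depend on IL-15, and naive and memory T cells on IL-7.

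All members are protein-coding genes, and 4 of them form neighbouring pairs in the mouse genome (GRCm38). Il2ra (chr2:11642807-11693193, plus strand) and Il15ra (chr2:11705290-11734317, plus strand) are neighbours with 12096 bases and no annotated gene between them. Il4ra (chr7:125552120-125579474, plus strand) and Il21r (chr7:125603429-125633570, plus strand) are also neighbours, 23954 bases apart. Il7r (chr15:9505788-9530176) and Il2rb (chr15:78479256-78495271) share chromosome 15 and the minus strand. Il2rg (chrX:101264378-101268255) is on the minus strand of the X chromosome. It shares 728 of its 1670 exon bases (43.6%) with Gm20489, a protein-coding gene model on the same strand that has 0 counts in all 12 libraries. Reads in shared bases may not have been counted for either gene.

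The 300-base promoter windows of Il2ra and Il7r are shown because these were the members whose levels were called different between NK and CD8 T cells. Each window runs from 250 bases before to 50 bases after the RefSeq start of the gene (GRCm38.p6). Capitals mark a match to the interferon gamma-activated site (GAS) motif TTCNNNGAA, which STAT proteins bind. The Il2ra window is chr2:11642542-11642841 on the plus strand and that of Il7r is chr15:9529827-9530126 on the minus strand. By the gene coordinates given above (chr15:9505788-9530176), the Il7r window and its GAS match lie inside the gene. The annotations thus place the start of Il7r differently.
Il2ra: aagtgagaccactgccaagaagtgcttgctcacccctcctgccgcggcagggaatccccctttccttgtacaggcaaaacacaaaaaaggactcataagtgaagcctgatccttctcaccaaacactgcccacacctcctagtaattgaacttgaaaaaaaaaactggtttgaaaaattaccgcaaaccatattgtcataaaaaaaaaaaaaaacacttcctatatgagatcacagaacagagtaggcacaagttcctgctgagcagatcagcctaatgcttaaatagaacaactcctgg
Il7r: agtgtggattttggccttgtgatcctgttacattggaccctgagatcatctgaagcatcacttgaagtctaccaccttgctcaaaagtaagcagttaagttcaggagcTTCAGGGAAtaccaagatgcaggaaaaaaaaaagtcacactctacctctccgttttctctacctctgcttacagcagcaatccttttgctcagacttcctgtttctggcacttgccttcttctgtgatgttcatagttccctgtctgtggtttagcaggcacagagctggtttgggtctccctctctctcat
The GAS letters read the same on both strands. They were in the window of 1 member, Il7r, and in 8.3% of 32851 promoter windows of the same length. The interferon-stimulated response element (GAAA and GAAA with any 2 bases between them), searched on both strands, were in 3.44% of these windows and in 0 of the 6 members with a window. Il2rb has no entry in the promoter table.

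The libraries held 10378761 to 14732882 counts, and a count of 3 corresponded to 0.218 to 0.276 CPM (counts per 1000000 of the TMM-adjusted library size), which was taken as the detection floor. The sort markers matched the labels. Ncr1, an NK receptor, was at 843 to 2298 CPM in the NK and 1.03 to 1.99 CPM in the CD8 libraries, and Cd8a was at 2.698 to 4.52 CPM and 2825 to 4086 CPM. Cd3e was at 7.17 to 51.7 CPM in the NK libraries. Summed over 8 genes each, NK cell markers were at 7196 to 11077 CPM in NK and 1126 to 1748 CPM in CD8 libraries, and T cell markers at 66.1 to 341 CPM and 11147 to 15632 CPM. B cell markers (6 genes) and epithelial markers of the tumour (5 genes) reached at most 32.7 and 50.7 CPM in any library. Tyk2 did not separate the genotypes. Its level was 60.8 and 68.9 CPM in the WT NK libraries, 56.3 and 104.6 CPM in those labelled KO and 119 and 82.3 CPM in those labelled KE. In CD8 T cells it was 48.3 and 86.1 CPM (WT), 61.9 and 73.8 CPM (labelled KO) and 59.0 and 46.7 CPM (labelled KE). The genotypes are therefore given as labelled. The NK libraries differed in 10 myeloid markers such as Csf1r and Lyz2. Their summed level was 7007 to 8035 CPM in the WT NK libraries, 4978 and 23.6 CPM in libraries 1 and 2 labelled KO, 61.2 to 239 CPM in those labelled KE and 49.1 to 367 CPM in CD8 T cells. None of the 10 markers was at 0 in the WT NK libraries or in KO library 1, and 1 to 3 of them were at 0 in each of the other NK libraries. All 10 were above the floor in the WT NK libraries and 9 in KO library 1. The marker under the floor there was Csf1r (0.156 CPM, beside 292 and 302 CPM in WT).

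To compare the members with each other, CPM was divided by the exon length of each gene in kilobases. In NK cells the mean level per kilobase over 6 libraries fell in the order Il2rb (841), Il2rg (414), Il15ra (20.1), Il7r (17.6), Il4ra (11.0), Il21r (9.29) and Il2ra (1.72 CPM per kb). The ranges over libraries of Il15ra (0.290 to 41.5), Il7r (3.88 to 54.7), Il4ra (6.54 to 14.7) and Il21r (1.09 to 15.6 CPM per kb) overlapped, as did those of Il21r and Il2ra (0 to 5.36 CPM per kb), so these neighbours in the order were not separated. In CD8 T cells the order of the mean levels was Il2rb (456), Il2rg (449), Il7r (46.1), Il21r (32.3), Il15ra (23.7), Il2ra (13.2) and Il4ra (5.59 CPM per kb). Il2rb and Il2rg had overlapping ranges there (335 to 571 and 397 to 536 CPM per kb). So did each pair of neighbours among the lower members, Il7r (26.9 to 79.0), Il21r (13.8 to 52.4), Il15ra (14.7 to 36.3), Il2ra (6.96 to 20.9) and Il4ra (2.15 to 9.88 CPM per kb). Divided by only the 942 exon bases that Il2rg shares with no other gene, a length chosen after the data had been seen, its mean was 735 CPM per kb in NK and 796 CPM per kb in CD8 T cells. On that length Il2rg was above Il2rb in every CD8 library and below it in every NK library, so the order of both in CD8 T cells depends on the length used. The shared beta and gamma chains were thus the most abundant members in both cell types, and the other members were lower in every library.

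**Figure D1:**
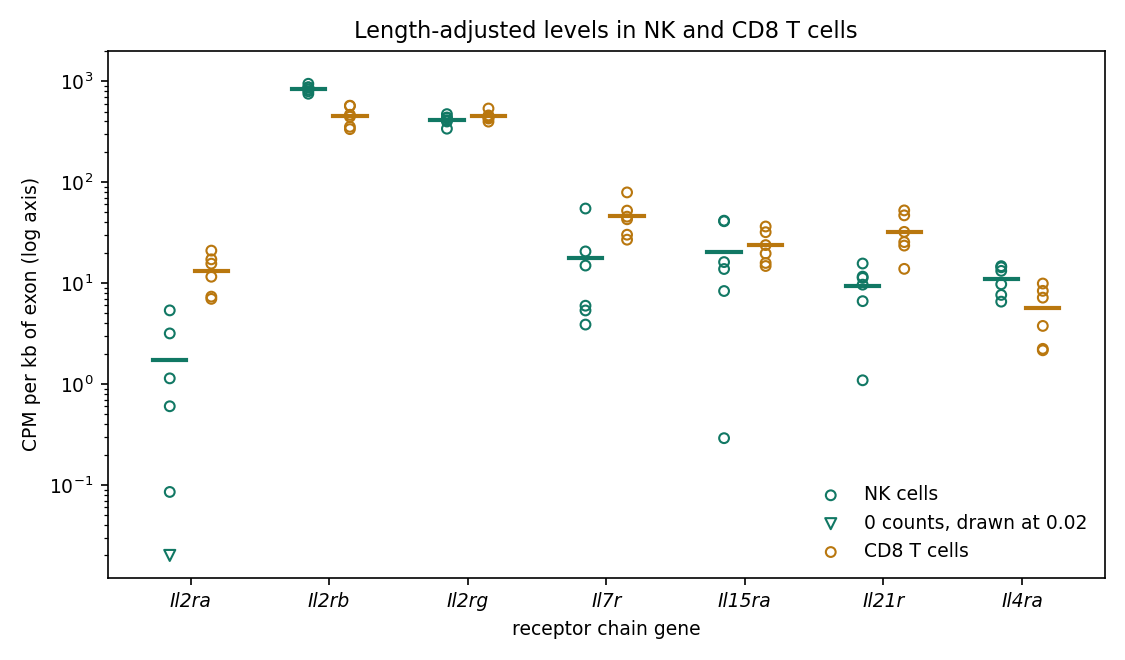
CPM per kilobase of exon (log axis) of the 7 receptor chain genes in 6 NK and 6 CD8 T cell libraries, with points for libraries and bars for means. Il2rb and Il2rg lie above 334 CPM per kb in every library, Il2rb is higher in NK cells, and Il2ra is spread from 0 counts (triangle) to 5.36 CPM per kb in NK cells.

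The gamma chain gene Il2rg had nearly the same level in all groups. Its lowest, median and highest levels were 564.5, 704 and 787 CPM in the NK and 663, 732 and 894 CPM in the CD8 libraries, which overlapped. Over all 12 libraries its coefficient of variation was 11.0%. Of the 170 tested genes with a mean of 500 to 1000 CPM, whose median coefficient was 23.9%, 1 had a lower value. The NK against CD8 difference of Il2rg over the 3 genotypes was -0.12 on the log2 scale, with a 95% interval of -0.37 to 0.14.

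Il2rb, the beta chain of the IL-2 and IL-15 receptors, was higher in NK cells. Its lowest, median and highest levels were 3216, 3622 and 4037 CPM in NK and 1434, 1948 and 2448 CPM in CD8 libraries. Every NK library was above every CD8 library. The log2 fold change of NK over CD8 T cells across the 3 genotypes was 0.89 (SE 0.13, FDR = 0.00305), which passed the FDR threshold but stayed below the 2-fold change that was needed for a call. The differences were 1.02 in WT, 0.91 in KO and 0.75 in KE on the log2 scale, and none of these passed in edgeR (smallest FDR 0.087). DESeq2 gave FDR of 0.000963, 0.0037 and 0.0308 and called Il2rb in WT, as did edgeR without the filter on low counts (FDR = 1.34e-05). Without CD8 KO library 1 the difference over the 3 genotypes was 1.02 and was called (FDR = 0.0015). Per kilobase, the level of Il2rb was 1.85 to 2.34 times that of Il2rg in the NK libraries (median 2.01) and 0.775 to 1.25 times in the CD8 libraries (median 1.05), without overlap between the cell types. With the 942 unshared bases as the length of Il2rg these ratios were 1.04 to 1.32 and 0.437 to 0.704.

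Across the 3 genotypes, 2 of the 7 members were called lower and 0 higher in NK than in CD8 T cells by edgeR (5 at an unadjusted p under 0.05), beside 4.47% of all tested genes called in either direction. The median log2 fold change of the members was -0.25, that of all tested genes 0.03. Over all tested genes 19.3% had an unadjusted p under 0.05. DESeq2 called 3 members, Il2ra, Il7r and Il21r, and 12% of the tested genes. The libraries of both cell types did not overlap for Il2ra and Il2rb, as for 4.86% of the tested genes. In bulk libraries such as these, fewer cells that express a gene and less RNA per cell cannot be told apart.

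**Figure D2:**
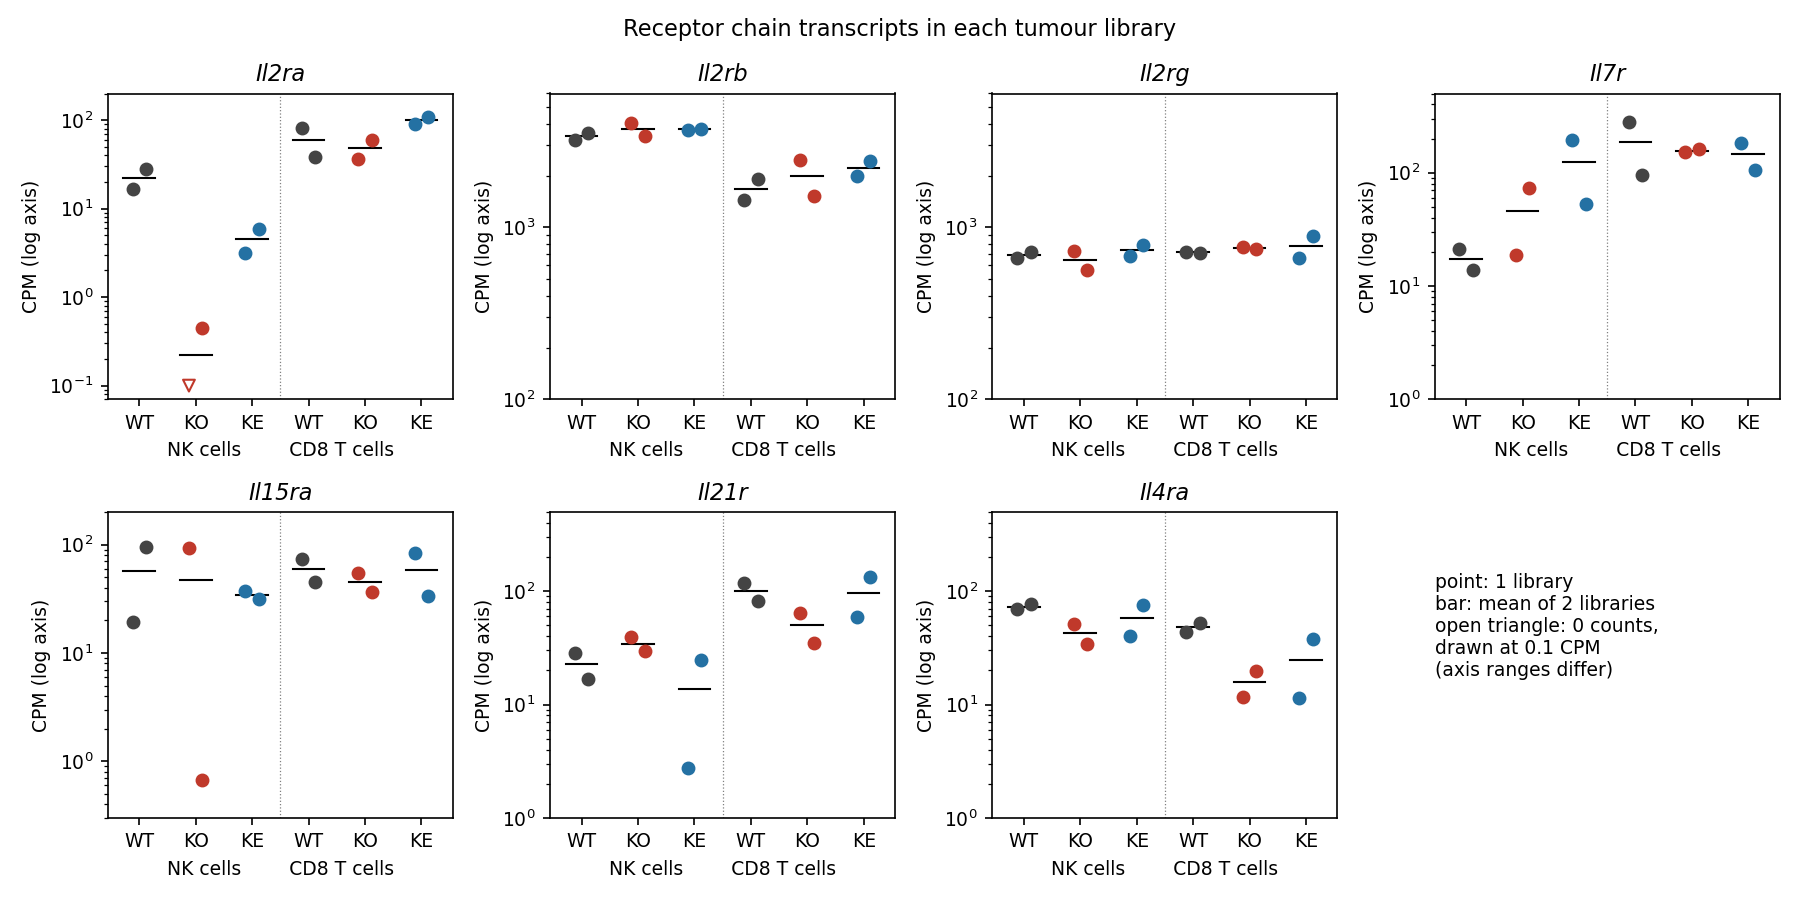
CPM (log axis, ranges differ between panels) of each receptor chain gene in the 12 libraries, with 1 point per library and a bar at the mean of the 2 libraries of a group. Il2ra is below 28 CPM in all NK and above 36 CPM in all CD8 libraries, and Il2rg is level throughout.

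Il2ra encodes the alpha chain (CD25) that gives the IL-2 receptor its high affinity and is a textbook marker of activated T cells. Its level in NK libraries was 16.5 and 27.9 CPM in WT, 0 and 0.443 CPM in those labelled KO and 3.13 and 5.92 CPM in those labelled KE. In CD8 libraries it was 81.0 and 38.2 CPM in WT, 36.3 and 60.1 CPM in KO and 89.4 and 109 CPM in KE. The highest NK library was thus below the lowest CD8 library, and both WT NK libraries were closest to the CD8 range. The log2 fold change over the 3 genotypes was -4.52 (SE 0.66, 95% interval -5.99 to -3.05, FDR = 0.00292), and the call was kept when any 1 of the 12 libraries was left out, with values of -6.05 (without NK KO library 2) to -4.21. By genotype, the log2 difference was -1.42 in WT (FDR = 0.635), -7.69 in KO (SE 1.34, FDR = 0.0259) and -4.45 in KE (FDR = 0.14). The KO value rests on 6 counts in the NK libraries, since library 1 had 0 counts, which allows up to 0.235 CPM. Without NK KO library 2, which held all 6 counts, it was -12.26, a fitted value that is no bound. Without CD8 KO library 1 or 2 this call was lost (FDR = 0.0623 and 0.0863). DESeq2 called Il2ra in KE as well (FDR = 1.18e-05).

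The KE comparison of Il2ra was between libraries with a low myeloid marker level in both cell types (61.2 to 367 CPM). A model added after the data had been seen took the myeloid marker level as a covariate. This level was the mean log2 CPM of the 10 markers, not their summed CPM. With this covariate, the difference over the 3 genotypes was -3.56 (FDR = 0.127) and that in WT changed sign to 1.30 (FDR = 0.931), neither being called. In KO it was -7.72 and the call was kept (FDR = 0.0338). In CD8 T cells, the regulatory T cell factor Foxp3 was at 15.3 and 45.9 CPM in the WT libraries and at 0 counts in the KO and KE libraries, where Il2ra was at 36.3 to 109 CPM. Cd4 was at 0 counts in all CD8 libraries. Ikzf4, the third gene of the list of CD4 and regulatory T cell markers, was at 31.6 and 24.7 CPM in WT, 16.9 and 19.4 CPM in KO and 1.82 and 46.6 CPM in KE. The summed list thus ranged from 46.9 to 70.6 CPM in the WT, from 16.9 to 19.4 CPM in the KO and from 1.82 to 46.6 CPM in the KE libraries of CD8 T cells, and from 0 to 6.72 CPM in the NK libraries. The part of such cells in the Il2ra level was not tested.

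Il7r encodes the alpha chain of the IL-7 receptor (CD127), typical of naive and memory T cells. Its NK levels were 21.1 and 13.7 CPM in WT, 18.9 and 72.8 CPM in KO and 194 and 52.7 CPM in KE. Its CD8 levels were 280 and 95.1 CPM in WT, 152 and 161 CPM in KO and 185 and 107 CPM in KE. Only KE library 1 of the NK libraries reached the CD8 range. Over the 3 genotypes Il7r was lower in NK cells with a log2 fold change of -1.81 (SE 0.45, FDR = 0.0441). This call remained when NK KO library 2, NK KE library 1 or CD8 WT library 2 was left out and was lost without any of the other 9 libraries (FDR up to 0.136). With the myeloid marker level as a covariate it was -1.07 (FDR = 0.346). Of 8 alternative fits to all libraries, 5 kept the Il7r call. The call was lost with that covariate, without the robust option and with a replicate block by number. The log2 differences by genotype were -3.43 in WT, -1.77 in KO and -0.24 in KE, with edgeR FDR of 0.116, 0.511 and 1. DESeq2 called Il7r in WT (FDR = 0.000492).

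Il21r, the receptor chain for IL-21, was measured at 28.6 and 16.8 CPM in WT, 39.7 and 29.4 CPM in KO and 2.76 and 24.5 CPM in KE NK libraries. The CD8 levels were 119 and 81.6 CPM in WT, 64.7 and 35.1 CPM in KO and 59.7 and 133 CPM in KE. Only NK KO library 1 was above the lowest CD8 library. The log2 fold change of NK over CD8 T cells was -1.83 (SE 0.52), close to that of Il7r, but its FDR of 0.0742 in edgeR missed the threshold. DESeq2 called it (log2 difference -1.82, FDR = 0.00547), as did edgeR without the filter on low counts (FDR = 0.00638). Without NK KE library 2 it passed, at an FDR of 0.0124.

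Il4ra, the alpha chain of the IL-4 receptor, was the other member besides Il2rb with a higher mean level in NK cells. Its NK levels were 69.3 and 77.2 CPM in WT, 51.1 and 34.4 CPM in KO and 40.1 and 75.2 CPM in KE. Its CD8 levels were 44.0 and 52.0 CPM in WT, 11.7 and 19.8 CPM in KO and 11.3 and 37.7 CPM in KE. Within each genotype both NK libraries were above both CD8 libraries, although the ranges over all genotypes overlapped. This order in all 3 genotypes was seen in 3.37% of the tested genes. The log2 difference over the 3 genotypes was 1.10 (95% interval 0.18 to 2.01), with an FDR of 0.171. With the myeloid marker level as a covariate it was 0.86 (FDR = 0.594).

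Il15ra, which presents IL-15 to neighbouring cells and is inducible by interferon in many cell types, had the highest biological coefficient of variation of the 7 members. Its NK levels were 19.1 and 94.95 CPM in WT, 93.8 and 0.665 CPM in KO and 36.9 and 31.5 CPM in KE. The CD8 libraries lay between 33.8 and 83.2 CPM, with a median of 49.7 CPM. The 2 libraries labelled KO thus held 1199 and 9 counts, and that coefficient was 92.3%, compared with 24.5% for Il2rg and a median of 98.5% over all tested genes. The log2 difference of NK over CD8 T cells was -0.25 with a 95% interval of -2.06 to 1.55.

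**Figure D3:**
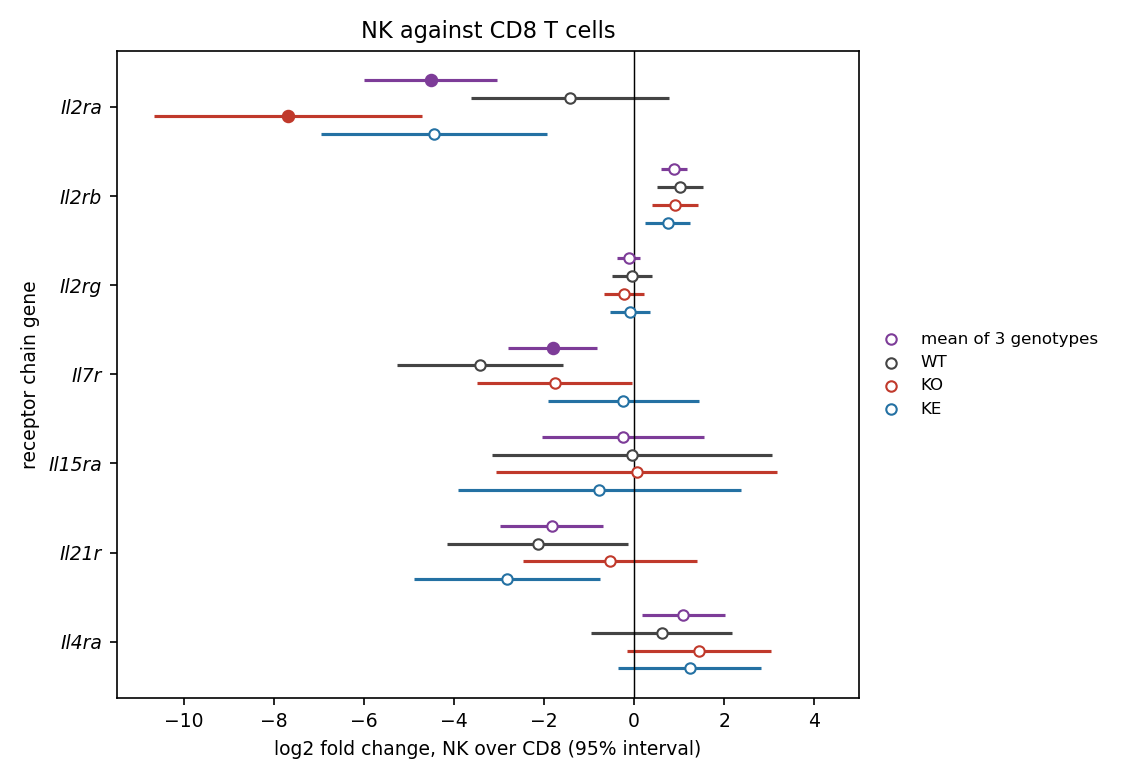
log2 fold change of NK over CD8 T cells with its 95% interval for each receptor chain gene, over the 3 genotypes and in each one, with filled points for calls. Il2ra (mean and KO) and Il7r (mean) are called lower in NK cells, and the Il2rb intervals lie above 0.

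By genotype, edgeR called 0 members in WT (background 0.776% of tested genes, 3 members at an unadjusted p under 0.05), 1 member in KO (background 0.904%, 3 at an unadjusted p under 0.05) and 0 in KE (background 0.7%, 3 at an unadjusted p under 0.05). An unadjusted p under 0.05 was found for 10.2%, 9.68% and 9.58% of the tested genes. The 1 member called in KO was Il2ra. DESeq2 called Il2rb and Il7r in WT, Il2ra in KO, and Il2ra and Il21r in KE, beside 6.23%, 6.1% and 6.09% of the tested genes. The median log2 difference of the members was -0.05 in WT, -0.22 in KO and -0.24 in KE, and that of all tested genes was 0.01, 0 and 0.

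The effect of the Tyk2 genotype was examined within each cell type. The comparisons share their WT libraries. In NK cells, 0 members were called by edgeR in KO against WT (1 at an unadjusted p under 0.05), in KE against WT (2) and in KO against KE (1), beside 0% of all tested genes in each of the 3 (6.3%, 6.01% and 3.8% at an unadjusted p under 0.05). DESeq2 called 1 member in each, Il2ra, Il7r and Il2ra, beside 2.85%, 2.91% and 1.54% of the tested genes. With both mutants averaged against WT, edgeR called 0 members (2 at an unadjusted p under 0.05), beside 0.0301% of tested genes called and 9.04% at such a p, and DESeq2 called 1, Il2ra, beside 3.44%.

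Il2ra had the largest difference of the members in KO and in the averaged mutants, and Il7r in KE. Both WT NK libraries (16.5 and 27.9 CPM) were above all 4 mutant libraries (0 to 5.92 CPM), an order seen in 10.8% of the tested genes. The log2 difference was -6.57 for KO (SE 1.28, unadjusted p = 0.000404, FDR = 0.413), -2.29 for KE (SE 1.03, unadjusted p = 0.0493, FDR = 0.824) and -4.43 for their mean (SE 0.87, 95% interval -6.37 to -2.49, unadjusted p = 0.000431, FDR = 0.124). None of these passed in edgeR over all genes. The KO libraries held 6 counts of Il2ra in all, and without library 2, which held them, the fitted differences were -11.14 for KO, -6.72 for the averaged mutants and -8.84 for KO against KE, while without library 1 they were -5.61, -3.96 and -3.31. The sizes of these differences are thus poorly set by the data. KO was below KE by 4.28 on the log2 scale (unadjusted p = 0.00431, edgeR FDR = 1). DESeq2 called Il2ra for KO (FDR = 1.16e-07), for the averaged mutants (FDR = 4.12e-06) and for KO against KE, and edgeR without the filter on low counts called it for KO (FDR = 0.00041) and the averaged mutants (FDR = 0.000205). Among CD8 libraries, WT and mutants overlapped and the difference of the averaged mutants was 0.21 (95% interval -1.68 to 2.11).

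The WT NK libraries had both the highest myeloid marker sums and the highest Il2ra levels of the NK cells. KO library 1 had 0 Il2ra counts and a summed myeloid level of 4978 CPM, most of it from Lyz2 (3376 CPM) and C1qb (950 CPM). Lyz2 was above its WT levels (2505 and 2098 CPM), while every other marker of the list was below both WT libraries. Csf1r was at 2 counts there (0.156 CPM, under the floor of 0.235 CPM), beside 292 and 302 CPM in WT. Adgre1 was at 8.60 CPM, beside 285 and 249.6 CPM in WT. With the mean log2 CPM of the 10 markers as a covariate the averaged difference was -7.29 (FDR = 0.967). Both WT libraries and 1 of the 4 mutant libraries had a high summed myeloid level, and the marker profile of that 1 library differed from WT. Genotype and myeloid level therefore cannot be told apart in the NK libraries.

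**Figure D4:**
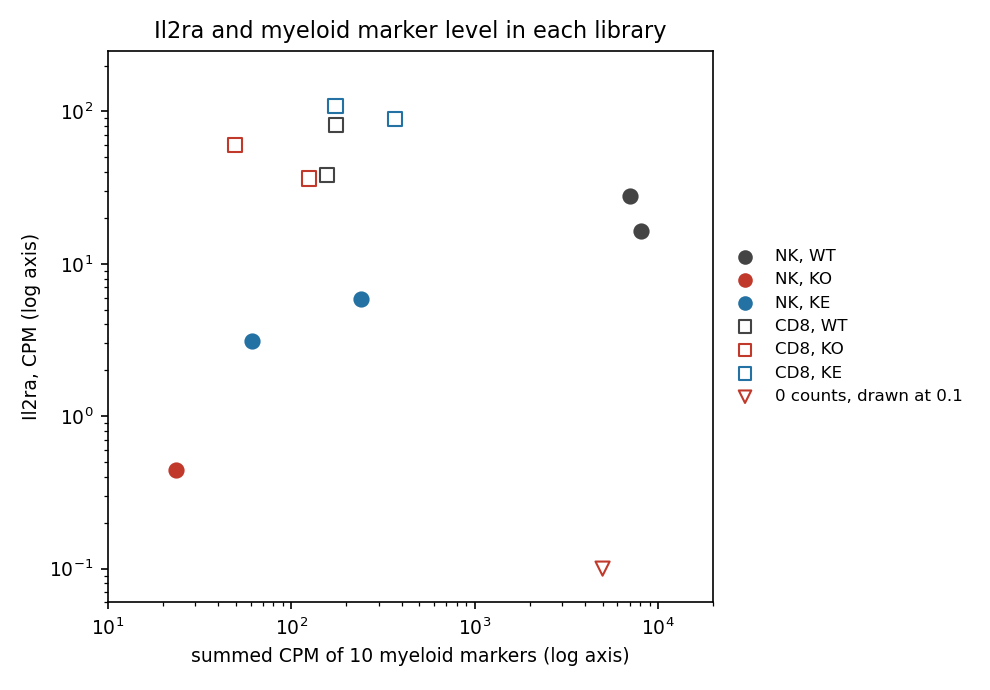
Il2ra level (CPM, log axis) against the summed level of 10 myeloid markers (CPM, log axis) in the 12 libraries, with NK libraries as filled circles or a triangle (0 counts) and CD8 libraries as open squares. The WT NK libraries are at 7007 to 8035 CPM of myeloid markers, KO library 1 at 4978 CPM has 0 Il2ra counts, and the CD8 libraries combine 49.1 to 367 CPM with the highest Il2ra levels.

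Il7r differed from WT in the other direction in NK cells, with a higher mean level in both mutants. The KE libraries (194 and 52.7 CPM) were above the WT libraries (21.1 and 13.7 CPM), and the KO libraries (18.9 and 72.8 CPM) reached from the WT level to the KE level. The summed level of the 8 T cell markers in NK cells moved with it. This sum was 66.1 and 113 CPM in WT, 90.1 and 320 CPM in KO and 227 and 341 CPM in KE. Not every marker on the list rose. In the NK libraries Cd8a stayed at 2.698 to 4.52 CPM and Cd8b1 at 1.42 to 2.35 CPM. None of the 8 was at 0 in any library, but Cd6 was at only 2 to 4 counts and Cd5 at 2 to 17 counts. Trac was lower in KE library 2 (20.2 CPM) than in WT library 1 (23.4 CPM). The rise lay mainly in Cd3d, Cd3e and Cd3g. Cd3d was at 12.1 and 36.2 CPM in WT, 16.2 and 120.5 CPM in KO and 77.5 and 113 CPM in KE. The 2 NK libraries with the most Il7r, KE library 1 and KO library 2, also had the highest share of mitochondrial counts (4.64% and 4.22%, beside 2.40% to 3.10% in the other 4) and the fewest genes detected (12776 and 12830, beside 13468 to 14015). The part of T cells and of RNA quality in the Il7r level was not tested. The log2 difference was 2.82 for KE (SE 0.81, unadjusted p = 0.00561, FDR = 0.547) and 1.40 for KO (FDR = 0.766), so that neither was called by edgeR. DESeq2 called Il7r for KE (log2 difference 2.81, FDR = 0.0162), as did edgeR without the filter on low counts (FDR = 0.000248). Without NK KE library 1 the KE difference was 1.598, and without NK KO library 2 that of KO was 0.10. With the myeloid level as a covariate the KE difference was 0.28 (FDR = 1), and that of KO turned to -0.95 (FDR = 1). The differences of Il2rb (0.14 for both KO and KE) and Il2rg (-0.10 and 0.08) were small, and the 95% interval for the averaged mutants was -0.30 to 0.58 for Il2rb and -0.39 to 0.38 for Il2rg. Il15ra, Il21r and Il4ra had differences of the averaged mutants of -0.50 (95% interval -3.16 to 2.15), -0.06 (-1.73 to 1.604) and -0.56 (-1.90 to 0.77), all with WT and mutant libraries overlapping. Leaving out 1 library gave -3.57 (without KO library 1) to 1.05 (without WT library 2) for Il15ra and -1.22 (without KE library 2) to 0.36 (without WT library 1) for Il21r.

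In CD8 T cells edgeR called 0 members in KO against WT (background 0.0527%), KE against WT (background 0.0828%), KO against KE (background 0%) and averaged mutants against WT (background 0.203%). In these 4 comparisons 0 members had an unadjusted p under 0.05, and DESeq2 called 0, beside 1.76%, 2.47%, 1.18% and 2.46% of the tested genes. The largest difference was that of Il4ra, which was lower in all 4 mutant libraries (11.3 to 37.7 CPM) than in both WT libraries (44.0 and 52.0 CPM), as were 7.49% of the tested genes. The log2 difference of Il4ra was -1.61 for KO (SE 0.73, unadjusted p = 0.0502, FDR = 0.887), -0.97 for KE (FDR = 0.866) and -1.29 for their mean (95% interval -2.60 to 0.03, FDR = 0.725). The CD4 and regulatory T cell marker sums (1.82 to 70.6 CPM) put the 6 CD8 libraries in the same order as their Il4ra levels, with KE library 1 lowest and both WT libraries highest, and their part in the difference was not tested. In NK cells the 2 WT libraries of Il4ra were at 69.3 and 77.2 CPM and KE library 2, at 75.2 CPM, lay between them. For Il2rb and Il2rg the averaged mutants differed from WT by 0.33 (95% interval -0.11 to 0.77) and 0.10 (-0.29 to 0.49) on the log2 scale. For Il15ra the interval was -2.88 to 2.48, so that a change of severalfold in either direction could not have been detected.

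**Figure D5:**
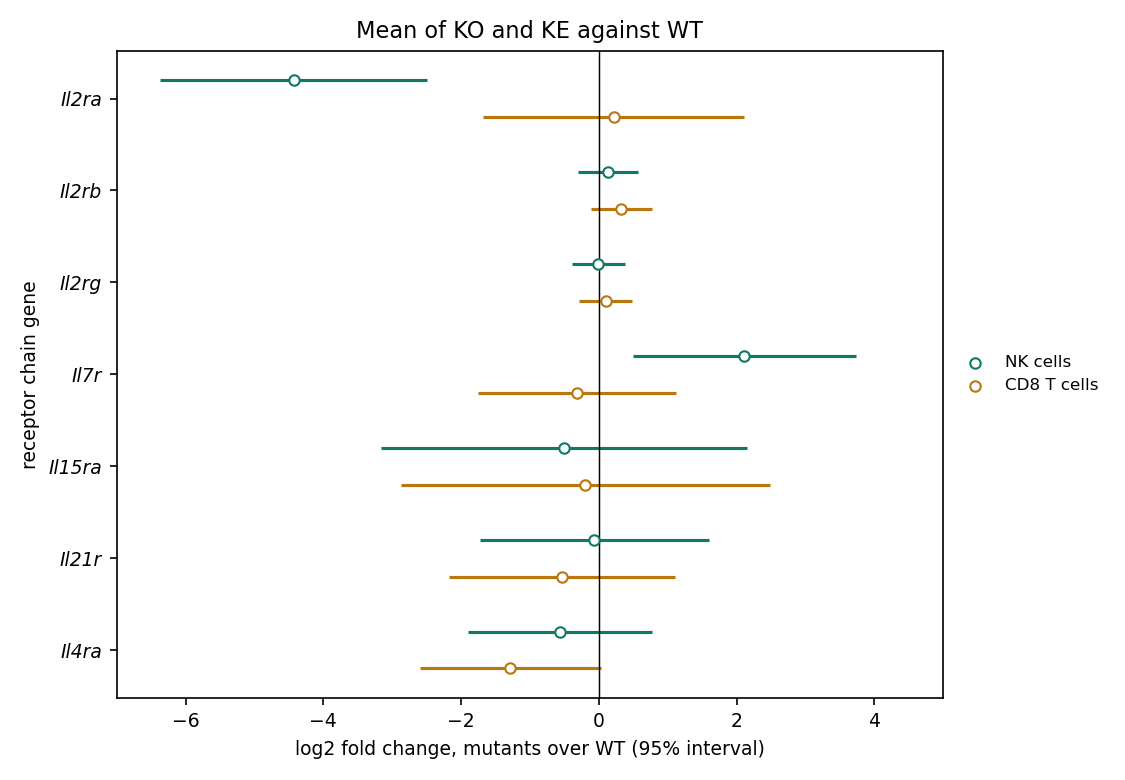
log2 fold change of the mean of both mutants over WT, with its 95% interval, for each receptor chain gene in NK and CD8 T cells. The Il2ra interval in NK cells (-6.37 to -2.49) and that of Il7r in NK cells (0.49 to 3.73) do not include 0, but none of the 7 was called by edgeR, while DESeq2 called Il2ra in NK cells.

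Interaction terms compared the size of each mutant's effect in NK cells with that in CD8 T cells. No member was called by edgeR for the KO effect (background 0.00753%, 1 at an unadjusted p under 0.05) or the KE effect (background 0%, 1 at an unadjusted p under 0.05). DESeq2 called Il2ra for the KO effect and 0 members for the KE effect, beside 1.49% and 2.09% of the tested genes. The largest terms, NK minus CD8 T cells, were -6.26 for Il2ra in KO (SE 1.55, unadjusted p = 0.00215, FDR = 0.665) and 3.19 for Il7r in KE (SE 1.10, unadjusted p = 0.0151, FDR = 0.784). Without NK KO library 2 the Il2ra term was -10.81, and without NK KE library 1 the Il7r term was 1.96. For Il2rg the terms were -0.18 (95% interval -0.81 to 0.45) and -0.04 (-0.67 to 0.59).

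Of 25 other genes of the pathway, 21 were tested, and 2 were called higher and 0 lower in NK than in CD8 T cells over the 3 genotypes by edgeR (8 at an unadjusted p under 0.05, 4 called by DESeq2). Over all tested genes these shares were 4.47% called by edgeR, 19.3% at an unadjusted p under 0.05 and 12% called by DESeq2. Both are target genes of these cytokines: Pim2, a survival kinase (log2 fold change 1.66, FDR = 0.00366), was at 198 to 534 CPM in NK and 54.0 to 160 CPM in CD8 libraries, and Bcl2, an inhibitor of apoptosis (1.49, FDR = 0.00631), was at 389 to 812 CPM and 115 to 294.5 CPM. The NK and CD8 libraries did not overlap for either. Jak1, the kinase bound by the partner chains, was at 990 to 1586 CPM in NK and 524 to 779 CPM in CD8 libraries, and its log2 difference of 1.00 (FDR = 0.00225) in edgeR fell just short of the 2-fold threshold, while DESeq2 called it (1.01, FDR = 7.38e-09). Jak3, bound by the gamma chain, was at 13.4 to 92.1 CPM and 26.04 to 108.5 CPM (log2 difference -0.24, FDR = 0.969).

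Of the 4 STAT genes, 0 were called by edgeR (1 at an unadjusted p under 0.05) or DESeq2. Stat3 differed by -0.16, Stat5a by -0.67 and Stat5b by -0.66 on the log2 scale. The gene with the unadjusted p under 0.05 was Stat6, with a difference of 0.74 (FDR = 0.182) and levels of 124 to 326 CPM in NK and 83.8 to 165 CPM in CD8 libraries. Of the 4 inhibitors 0 were called by edgeR (2 at an unadjusted p under 0.05) or DESeq2, with Cish at -0.74 (FDR = 0.185) and Socs1 at 0.79 (FDR = 0.15). Among the ligands, Il4 and Il9 had 0 counts in all 12 libraries, Il2 was above 1 CPM only in NK KE library 1 (6.08 CPM), and Il7 only in NK WT library 1 (4.35 CPM) and NK KO library 2 (25.3 CPM). Il15 was above 1 CPM in 3 NK and 0 CD8 libraries with a highest level of 29.2 CPM, and Il21 was above 1 CPM in 2 CD8 libraries with a highest level of 25.95 CPM. Among the related chains, Crlf2 was at 9.12 to 17.4 CPM in NK and 3.31 to 27.5 CPM in CD8 libraries. Il13ra1, which pairs with the IL-4 receptor alpha chain, was at 56.4 CPM in 1 WT NK library and below 1 CPM in the other 11. In the genotype comparisons and interactions 0 of the 21 were called by edgeR (0 to 2 of them at an unadjusted p under 0.05 in each), and DESeq2 called 1, the cytokine gene Osm, in KO, KE and the averaged mutants against WT in CD8 T cells and in the KE interaction. Osm was at 2.14 to 114 CPM in the NK and 0 to 32.8 CPM in the CD8 libraries.

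The genes most like each member were ranked by the smaller of the correlations of log2 CPM over the 6 NK and over the 6 CD8 libraries, as a description from a search through all tested genes. The highest values belonged to Gpn3 (r at least 0.894 in both cell types) and Il6ra (0.858) for Il2ra, Rhof (0.902) and Atad1 (0.893) for Il2rg, and Rras (0.851) and Zfp51 (0.833) for Il2rb. For Il7r they were Pip4k2b (0.866) and Cnbp (0.861), for Il15ra Trnt1 (0.913) and Gm9752 (0.901), for Il21r Cog4 (0.913) and Fam19a3 (0.893), and for Il4ra Apobec3 (0.898) and Ppp1r18 (0.871). None of the 14 is another member. The neighbouring pair Il2ra and Il15ra had r of 0.248 in NK and 0.0941 in CD8 libraries, and Il4ra and Il21r had 0.287 and 0.623, each over 6 libraries that share genotype groups.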

How the data were processed

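RNA-seq of 12 libraries of tumour-infiltrating NK and CD8 T cells was analysed from the count table deposited by the authors. Per the study's methods, the authors ran Trimmomatic on single-end reads of 50 bases, mapped them to mm10 (STAR) and counted, with summarizeOverlaps, those that aligned uniquely within exons of the GRCm38 annotation. The strand setting of the counting is not given in the sources used here. The deposited values are raw read counts per Ensembl gene, not normalized. Reads shared by several genes were not counted, which lowers the level of genes with near copies, and the small input adds amplification noise. The table had 0 columns of per-sample values that could not be matched to a sample.

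Groups came from the labels. Symbols, coordinates and exon lengths were taken from GENCODE vM21 (GRCm38), with 153 IDs unmatched, and promoter windows from RefSeq (GRCm38.p6). The 13279 genes whose normalized counts averaged 10 or more were tested with edgeR 4.0.16 (quasi-likelihood F-test, robust, TMM) in R 4.3.3, with 1 model over the 6 groups and Benjamini-Hochberg adjustment over all genes tested. Calls needed an FDR below 0.05 and a change by 1 or more on the log2 scale in either direction, as in the study. DESeq2 1.42.0, other normalizations, filters and blocks, and leaving out each library were run as alternatives. CPM values use TMM library sizes, and fold changes and intervals are those of the edgeR fit. The procedure was tested on simulated data. Depth was 10378761 to 14732882 counts per library, and detection floors cover counting error only. The labels name no sequencing batch. Replicates of a group differed by more than sampling noise (chi-square per gene 118 to 171). All 7 members were named in every comparison, together with fixed pathway and marker lists and the 2 genes most like each member. The result of 1 marker list is not reported here. Members and lists were chosen with earlier results of these data known.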

Additional observations from a re-analysis of the deposited data

Results flagged for a closer look

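For Il2ra, the KE effect went in opposite directions in the 2 cell types. Both KE libraries were below both WT libraries in NK cells (3.13 and 5.92 against 16.5 and 27.9 CPM) and above both in CD8 T cells (89.4 and 109 against 81.0 and 38.2 CPM). The interaction term was -3.03 on the log2 scale (edgeR, 95% interval -6.17 to 0.11, unadjusted p = 0.0574, FDR = 0.784), so the difference did not pass the test. The share of all tested genes with such an order was not counted.

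For Il21r, the KO effect had opposite directions. The KO libraries were above the WT libraries in NK cells (39.7 and 29.4 against 28.6 and 16.8 CPM) and below them in CD8 T cells (64.7 and 35.1 against 119 and 81.6 CPM). The interaction term was 1.61 (edgeR, 95% interval -1.13 to 4.36, unadjusted p = 0.22, FDR = 1), which did not pass either. For this order, too, the share of all tested genes was not counted.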

How the results depend on the processing

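The counts of members called were recomputed 193 times, of which 165 gave the same count or one within 1.5 times, 14 a lower and 14 a higher one. For NK against CD8 T cells over the 3 genotypes (2 called), leaving out 1 library gave 1 to 2, the fit without the robust option gave 1, and the myeloid covariate, added after the data had been seen, gave 0. In KO (1 called), leaving out 1 library gave 0 to 1 and the fit to only the groups compared gave 0. DESeq2 called 2 members in WT, 2 in KE, 1 each in KO against WT, KE against WT, KO against KE and averaged mutants against WT of NK cells, and 1 for the KO interaction. Without the filter on low counts edgeR called 2 in WT, 1 in KE, 1 each in KO and KE against WT of NK cells, 2 for their averaged mutants and 1 for each interaction. The share of all genes called without the filter is not given here, so these counts have no background beside them. Of 819 values of single members in fits to all libraries, 36 changed sign, 28 of them with the myeloid covariate, which turned the uncalled Il2ra difference in WT to 1.30, and 67 more changed sign with 1 library left out. Of the called values 0 changed sign. The Il15ra difference between cell types was 0.01 without CD8 KE library 1, 0.063 without NK KO library 2 and -2.30 without NK KO library 1. The cause of these changes was not tested.

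Same-numbered libraries did not deviate together (r -0.05 to 0.06), so the numbers do not pair the samples. With a replicate block by number 1 member was called over the 3 genotypes, and with a replicate block by genotype and number 0 in KO.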
